A study of Mus musculus with 32 samples.

Results

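Kruppel-like factors (KLFs) are transcription factors that end in a run of zinc fingers and bind CACCC and GC-rich boxes in DNA. Messenger RNA of 10 KLF genes (Klf2, Klf3, Klf4, Klf6, Klf7, Klf9, Klf10, Klf11, Klf12 and Klf13) was followed through hematopoietic stem and progenitor cells of young and aged mice. The genes were chosen by symbol, as 10 of the 24421 rows of a table of raw gene counts, and all 10 passed the filter on low counts. The study compared 8 fractions sorted from bone marrow of untreated C57BL/6 females, either young (10 weeks old) or aged (20 months old), with 2 libraries per group and 32 in all. By the labels, hematopoietic stem cells (HSCs) and multipotent progenitors (MPPs) were lineage-negative, Sca-1+ and c-kit+. HSCs were CD34-, CD150+, CD48- and Flt3-, and MPP1 differed from them by CD34+. MPP2 were CD150+ and CD48+, MPP3 were CD150- and CD48+, and MPP4 were CD150-, CD48+ and Flt3+. Granulocyte-macrophage progenitors (GMPs) were Sca-1-, c-kit+, FcgR+ and CD34+. Megakaryocyte-erythrocyte progenitors (MEPs) were Sca-1-, c-kit+, FcgR- and CD34-. Common lymphoid progenitors (CLPs) were sorted as IL-7 receptor-positive cells low in Sca-1 and c-kit. Marrow was pooled by age, and whether both duplicates of a group came from the same pool is not clear, so p-values may measure only the technical spread between libraries.

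By their proteins the members fall into 3 sets. Klf2, Klf4, Klf6 and Klf7 carry activation domains. In lymphocytes and endothelium Klf2 is known for holding cells quiescent and for switching on S1pr1, the receptor that lets cells leave tissue along sphingosine-1-phosphate. Klf4 is one of the reprogramming factors and serves monocyte development. Klf6 is an early response gene, and Klf7 is best known from neurons. Klf3 and Klf12 recruit the corepressor CtBP, and Klf3 acts downstream of Klf1 in the erythroid lineage. Klf9, Klf10, Klf11 and Klf13 bind the corepressor Sin3A. Klf9 is a target of the glucocorticoid receptor, and Klf10 and Klf11 are known as TGF-beta-inducible early genes.

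The genes lie on 10 different chromosomes (GENCODE M21 annotation of GRCm38, mm10). Klf2 lies on chromosome 8 from 72319033 to 72321656, Klf4 on chromosome 4 from 55527143 to 55532466, and Klf6 on chromosome 13 from 5861482 to 5870394. All 10 are annotated as protein-coding. The counting was not stated to use strand. Exons of Klf3 and Klf7 overlap genes on the opposite strand that were not rows of the table, so reads of these partners could have entered their counts.

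Windows of 220 bases just upstream of the RefSeq transcription start (GRCm38.p6) are shown for Klf2, Klf4 and Klf6, because these 3 genes had parallel levels across the fractions and all fell in aged CLPs. Each is written 5′ to 3′ on the strand of the gene, at chr8:72318812-72319031 (+), chr4:55532506-55532725 (-) and chr13:5861239-5861458 (+). Capitals mark matches on either strand to any of 9 motifs. These were the GC box with the letters GGGCGG, the box bound by KLF proteins with the letters CACCC, and the box bound by the factor NF-Y with the letters CCAAT. The others were the E-box, spelled CACGTG, the half-site of cyclic AMP response elements, spelled TGACG, and the site of AP-1 proteins, spelled TGANTCA. Sites of STAT factors (TTCNNNGAA), the TATA box (TATAAA) and sites of MEF2 factors (CTANNNNTAG) were also searched.
Klf2: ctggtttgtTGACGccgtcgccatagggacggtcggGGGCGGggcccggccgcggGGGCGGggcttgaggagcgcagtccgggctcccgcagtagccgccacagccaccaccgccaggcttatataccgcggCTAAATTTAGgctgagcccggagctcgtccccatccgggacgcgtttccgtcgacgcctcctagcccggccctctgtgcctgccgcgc
Klf4: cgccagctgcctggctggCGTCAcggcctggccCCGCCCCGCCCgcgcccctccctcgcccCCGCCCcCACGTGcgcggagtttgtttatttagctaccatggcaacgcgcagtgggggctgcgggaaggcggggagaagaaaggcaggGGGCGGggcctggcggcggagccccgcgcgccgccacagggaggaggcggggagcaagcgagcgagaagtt
Klf6: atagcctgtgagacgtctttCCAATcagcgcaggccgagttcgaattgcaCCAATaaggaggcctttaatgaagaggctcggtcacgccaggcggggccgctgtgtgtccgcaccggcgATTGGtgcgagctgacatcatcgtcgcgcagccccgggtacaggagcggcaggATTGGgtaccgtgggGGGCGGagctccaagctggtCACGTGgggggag

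The GC box was present in 7 of the 9 members that had a RefSeq promoter and in 28.5% of all 32851 promoter windows of this length. The member windows were 50.0% (Klf12) to 79.1% (Klf3) G or C, against a median of 51.8% over all windows. The part of this composition in the count of GC boxes was not tested. The CACCC box stood in 4 of the 9 members, against 47.8% of all windows. Klf2 was the 1 member with a MEF2 site, a motif held by 2.83% of all windows. MEF2 factors, activated through the kinase Erk5 (Mapk7), are known inducers of Klf2. Klf6 had 4 CCAAT boxes in its window and Klf4 had 4 GC boxes, a pair of which overlap. The E-box stood in Klf4, Klf6 and Klf11 against 5.01% of all windows, and no member window held the STAT site (6.27% of all). These matches describe letters and not bound sites.

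Total counts per library ran from 11237384 to 17723245. Levels are given as CPM, counts scaled to library size with TMM factors, and 3 counts, the most that a count of 0 allows, corresponded to 0.186 to 0.281 CPM. Duplicates differed by more than counting noise in all 16 groups. In young cells, 4 of the 8 sort antigens are shown, and these followed the gates. Levels of Kit, Ly6a, Cd34 and Slamf1 are not given here, so the check of the gates is partial. Flt3 was highest in young MPP4 (1059 and 1066 CPM), Fcgr3 in young GMPs (489 and 473 CPM) and Il7r in young CLPs (157 and 159 CPM). Cd48 was at 1.05 and 1.04 CPM in young HSCs. With age, 5 of 8 sort antigens were lower and 0 higher in MEPs (median log2 -1.73), where 11.7% of all tested genes were called lower. MPP2, MPP3 and MPP4 each had 1 higher and 2 lower, and CLPs had 2 higher and 1 lower. HSCs had 1 lower, and MPP1 and GMPs each had 1 higher and 1 lower. Markers of other cells also moved with age. In aged CLPs, of 8 genes in each list, 7 B lineage, 6 basophil and mast cell, 6 neutrophil and 6 macrophage genes were lower and 7 megakaryocyte genes were higher. In aged MPP3 6 neutrophil, 5 macrophage, 6 erythroid, 6 megakaryocyte, 3 B lineage and 3 of 5 tested plasma cell genes were lower. In aged HSCs 5 neutrophil, 4 basophil and 2 megakaryocyte genes were higher. In aged GMPs 4 neutrophil, 3 macrophage and 5 erythroid genes were lower. Aged MPP2 had 5 neutrophil, 3 macrophage, 5 erythroid and 4 megakaryocyte genes lower, with 2 basophil genes higher and 3 lower. Aged MPP4 had 4 macrophage, 4 megakaryocyte and 2 basophil genes lower, and aged MPP1 had 1 macrophage gene lower and 1 basophil gene higher. In aged MEPs 6 B lineage and 4 macrophage genes were lower. Some lists with fewer calls are left out here, and the shares of all tested genes called are given by fraction below. The 8 basophil and mast cell genes summed to 1739.9 and 1788 CPM in young CLPs but to 8.26 and 12.3 CPM in aged CLPs, with Prss34 at 1283 and 1308 CPM in the young and at 0 in both aged libraries. The 8 B lineage genes summed to 194 and 182 CPM in young MEPs and to 1.22 and 0.43 CPM in aged MEPs. Their part in the differences below was not tested. In such bulk samples, fewer cells expressing a gene and less RNA per cell cannot be told apart.

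**Figure D1:**
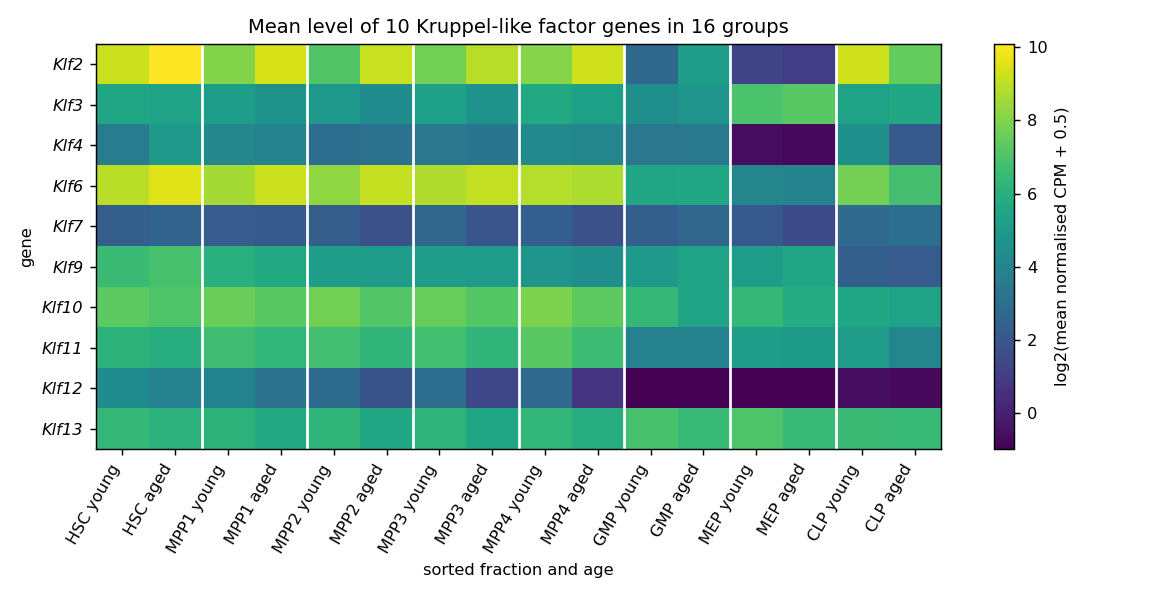
Heat map of the mean level of each gene (rows) in the 16 groups (columns, 2 libraries each), coloured by log2 of mean normalised CPM plus 0.5. Klf2 and Klf6 are bright from HSC to MPP4 and in CLP and dark in MEP, Klf3 is brightest in MEP, and Klf12 is at 0 in GMP and MEP.

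In young marrow the members split by fraction. Klf2 was at 601 and 584 CPM in HSCs and at 617 and 639 CPM in CLPs, but at 5.41 and 6.77 CPM in GMPs and at 1.98 and 1.79 CPM in MEPs. Its order was CLP, HSC, MPP4, MPP1, MPP3, MPP2, GMP, MEP, and among these neighbours only MPP4 and MPP1 overlapped. The range of means spanned 332-fold. Klf6 was at 507 and 476 CPM in HSCs, between 301 and 470 CPM in the MPPs, and at 20.0 and 12.3 CPM in MEPs. None of its neighbouring fractions overlapped. Klf4 was far lower, between 6.41 and 23.8 CPM outside MEPs, with CLP and MPP4 overlapping at the top, and its 2 young MEP libraries held 0 and 4 counts. Klf7 was between 2.18 and 7.62 CPM in all young libraries, and 6 of its 7 neighbouring pairs overlapped.

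The CtBP-binding members differed from each other. Klf3 was highest in MEPs (132 and 117 CPM), against 43.9 and 45.9 CPM in HSCs and 25.1 and 20.5 CPM in GMPs. Klf12 was highest in HSCs (23.1 and 18.1 CPM) and MPP1 (17.2 and 14.0 CPM), was between 6.09 and 8.06 CPM in the other MPPs, and had 0 counts in all 4 GMP and all 4 MEP libraries of both ages. Against this floor, Klf12 was at least 97.9-fold lower in young GMPs and at least 101-fold lower in young MEPs than in young HSCs. It held 4 and 0 counts in young CLPs.

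Of the Sin3A-binding members, Klf9 was highest in HSCs (97.8 and 89.7 CPM), followed by 64.1 and 68.5 CPM in MPP1, was at 29.5 and 24.9 CPM in MPP4 and lowest in CLPs (4.35 and 5.02 CPM). Klf10 and Klf11 both peaked in MPP4, Klf10 at 243 and 244 CPM and Klf11 at 159.6 and 145 CPM. Klf10 was lowest in CLPs (47.9 and 48.9 CPM) and Klf11 in GMPs, where its duplicates differed (8.26 and 20.3 CPM). Klf13 was the most even member with Klf7, from 69.5 to 133 CPM, with means within 1.8-fold and the highest value in MEPs.

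Young progenitors were tested against young HSCs with edgeR's quasi-likelihood test on all 32 libraries, and a gene was called at a Benjamini-Hochberg adjusted p under 0.01, the level the study used. The mean over MPP1 to MPP4 differed from HSCs for 5 of 10 members (2 higher, 3 lower), while 38.1% of all tested genes were called. Klf2 was 2.8-fold lower in MPPs than in HSCs (log2 -1.48 ± 0.16 SE, adjusted p = 1.01e-07), Klf9 2.38-fold lower (adjusted p = 1.82e-11) and Klf12 2.42-fold lower (adjusted p = 0.000164). Klf11 was 1.63-fold higher (adjusted p = 0.00105) and Klf10 1.3-fold higher (adjusted p = 8.01e-05). The call of Klf11 was lost without young HSC replicate 1 (log2 0.67) and without young HSC replicate 2 (log2 0.74). That of Klf12 was lost without young HSC replicate 1 alone (log2 -1.09). In GMPs 8 of 10 members were called, against 64.6% of all genes, and in MEPs 9 of 10, against 68.7%. Klf2 was 97-fold lower in GMPs and 311-fold lower in MEPs, and Klf6 10.7-fold and 30.3-fold lower. Klf13 was the 1 member higher in GMPs (1.43-fold, adjusted p = 0.000514), with an adjusted p of 0.0544 without young GMP replicate 1. In MEPs Klf3 was 2.76-fold and Klf13 1.58-fold higher than in HSCs. In CLPs 5 of 10 were called, all lower, against 57.3% of all genes. Klf9 was 19.9-fold, Klf10 3.27-fold, Klf6 2.25-fold and Klf11 2.12-fold lower. The largest estimate was that of Klf12 (log2 -6.9 ± 0.52), which rests on 4 and 0 counts in young CLPs. Klf2 and Klf13 did not pass in CLPs (log2 0.08 ± 0.22 and 0.18 ± 0.12), nor did Klf3, Klf4 and Klf7. These 4 comparisons share the young HSC libraries.

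Levels of different genes can be compared only per length. On the scale of CPM per kilobase of longest transcript (RPKM), Klf2 was at 321 ± 6.51 (SD, n = 2) in young HSCs, Klf6 at 116 ± 5.22, Klf10 at 52.0 ± 3.19 and Klf9 at 20.9 ± 1.27, and Klf7 was at 0.611 ± 0.0868. Klf2 thus made up 57.2% and 57.9% of the 10-gene sum in the duplicates of young HSCs and 75.6% and 76.2% in young CLPs, but 1.09% in both young MEP libraries. In young GMPs the largest share was that of Klf10 (35.3% and 35.1%). With the union of all exons as length, Klf3 in young HSCs was 3.99 in place of 8.60 RPKM and Klf10 was 37.9, while Klf2, which has 1 annotated transcript, kept its value. The sum over the 10 genes was 568 and 545 RPKM in young and 834 and 932 RPKM in aged HSCs. In CLPs it was 442 and 454 RPKM in young and 214 and 118 RPKM in aged libraries.

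**Figure D2:**
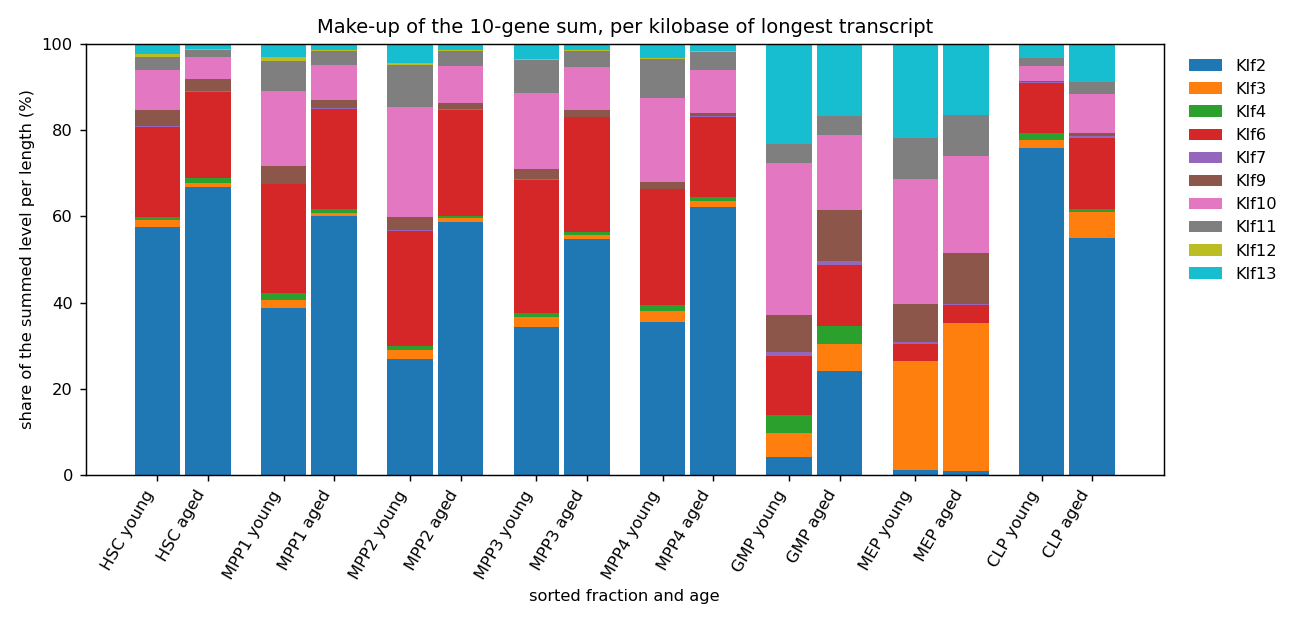
Stacked bars of the mean share (%) that each gene held of the summed level of the 10 genes, per kilobase of longest transcript, by fraction and age (mean of 2 libraries). Klf2 has a larger share in aged than in young cells from HSC to GMP, and in CLP its mean share is 75.9% in young and 55.1% in aged cells.

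Aged cells were compared with young cells of the same fraction, which asks whether the family changed with age. Of 80 pairs of member and fraction, 26 were called, 7 higher and 19 lower in aged cells, against 12.6% of such pairs over all tested genes. At least 1 fraction gave a call for 9 of the 10 members and for 46.2% of all tested genes. Klf2 was called higher in 5 fractions, Klf10 lower in 6 and Klf13 lower in 5, and Klf7 was not called in any of the 8.

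By fraction, no member was called in HSCs with edgeR, where 3.74% of all tested genes were called higher and 1.66% lower. With DESeq2 2 members were called in HSCs, against 10.6% of all genes that DESeq2 tested, and 5 had an unadjusted p under 0.05 with edgeR, against 23.8% of all genes. MPP1 had 1 member called higher and 1 lower, against 4.71% and 2.09% of all genes. For MPP2 the members numbered 2 higher and 2 lower (all genes 4.49% and 3.31%). MPP3 and MPP4 each had 1 higher and 4 lower, where all genes gave 8.14% and 5.79% for MPP3 and 10.3% and 6.27% for MPP4. GMPs had 2 higher and 2 lower (all genes 9.93% and 8.97%), MEPs 2 lower (9.08% and 11.7%) and CLPs 4 lower (5.71% and 4.73%). The median log2 fold change of the 10 members was -0.50 in MPP2 and -0.46 in MPP4, where that of all tested genes was -0.02, and it was 0.03 in HSCs against 0.02. Another scaling (size factors of DESeq2) moved the split over all genes from 1459 higher and 888 lower to 1175 and 1085 in MPP4 and from 1152 and 820 to 945 and 991 in MPP3, but changed the sign of no called member.

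**Figure D3:**
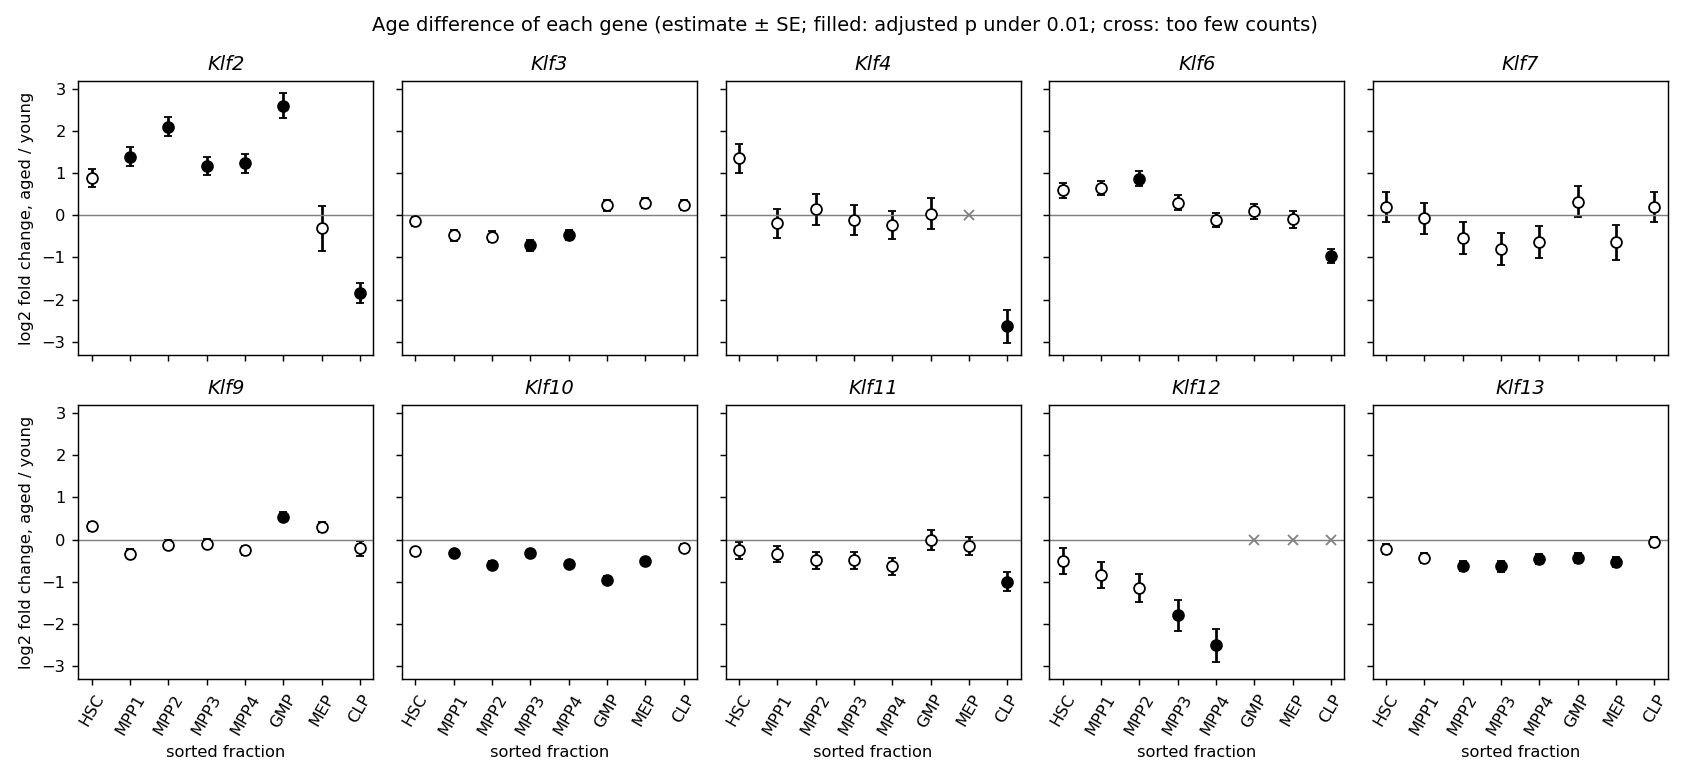
Log2 fold change of aged against young cells for each gene (panels) in each fraction (x axis), as the estimate with 1 SE from edgeR on all 32 libraries. Filled points have an adjusted p under 0.01, and crosses mark groups with too few counts for a fold. Klf2 is above 0 from HSC to GMP and below 0 in CLP, and Klf10 lies below 0 in all 8 fractions.

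Klf2 had the largest rise. In MPP2 it was at 129.6 and 139 CPM in young and at 556 and 596 CPM in aged libraries. In GMPs it was at 5.41 and 6.77 CPM in young and at 44.6 and 29.6 CPM in aged libraries. In both fractions the lowest aged library lay well above the highest young library. The rise was 4.28-fold in MPP2 (log2 2.1 ± 0.23 SE, adjusted p = 4.26e-06) and 6.08-fold in GMPs (log2 2.6 ± 0.29, adjusted p = 1.07e-06). Klf2 also rose 2.63-fold in MPP1 (252 and 267 to 696 and 668 CPM, adjusted p = 0.000219), 2.25-fold in MPP3 (218 and 211 to 480.1 and 486 CPM, adjusted p = 0.000584) and 2.35-fold in MPP4 (264 and 273 to 618 and 643 CPM, adjusted p = 0.00028). Without young MPP3 replicate 2, the MPP3 value had an adjusted p of 0.0107 at a log2 difference of 1.15, and the other calls held without any 1 library of their fraction.

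In HSCs, Klf2 was at 601 and 584 CPM in young and at 990.2 and 1196 CPM in aged libraries, which did not overlap. The difference of 1.85-fold (log2 0.88 ± 0.22) had an adjusted p of 0.0111, which missed the threshold with edgeR, and 0.00634 with DESeq2, which passed. In MEPs Klf2 was low at both ages (31 and 25 counts in young, 21 and 13 in aged libraries) and the groups overlapped.

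In CLPs Klf2 went the other way. It was at 617 and 639 CPM in young and at 245 and 105 CPM in aged CLPs, a 3.59-fold lower level (log2 -1.84 ± 0.23, adjusted p = 7.66e-06). Both aged libraries were low but they differed from each other by over 2-fold, and the log2 difference was -1.36 without aged replicate 2 and -2.58 without aged replicate 1. As a result the order of fractions changed: CLPs had the highest mean of Klf2 among the 8 young fractions and the third lowest among the aged, after MEPs and GMPs.

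**Figure D4:**
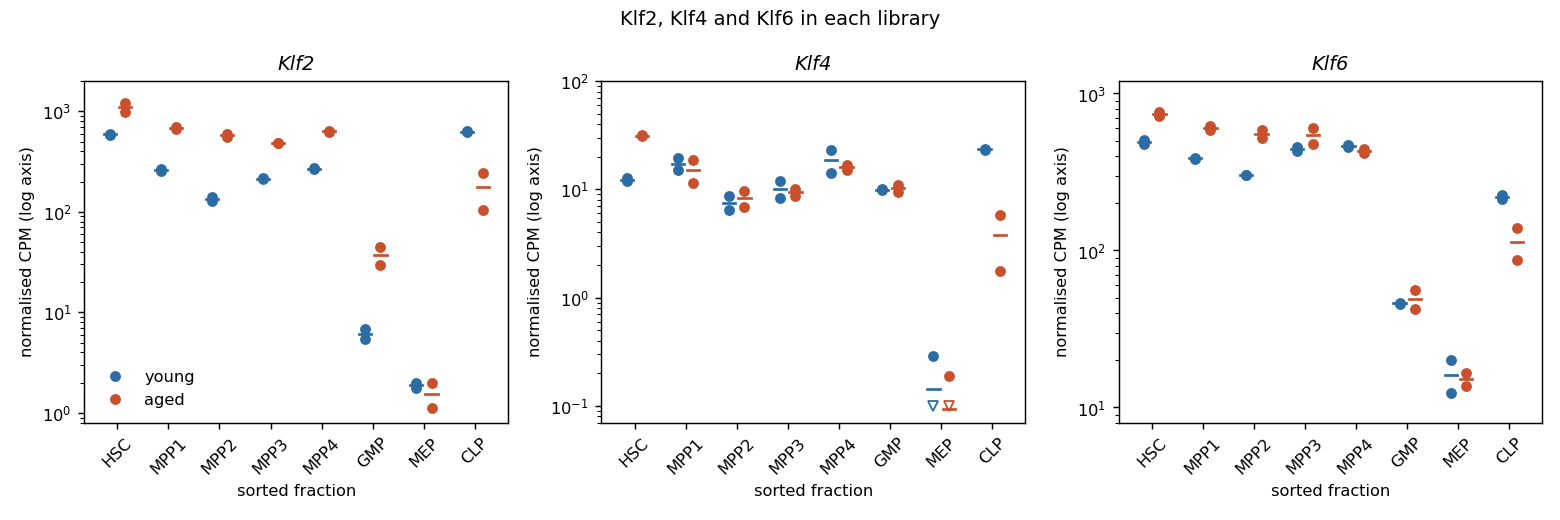
Normalised CPM (log axis) of Klf2, Klf4 and Klf6 in each library (points) with the group mean (bars), young in blue and aged in red; open triangles at the bottom stand for libraries with 0 counts. The aged CLP points lie below the young ones in all 3 panels, and the aged HSC points lie above the young ones.

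Klf4 fell with age in CLPs. It was at 23.1 and 23.8 CPM (281 and 294 counts) in young and at 5.79 and 1.78 CPM (75 and 24 counts) in aged CLPs, 6.21-fold lower (log2 -2.63 ± 0.39, adjusted p = 5.82e-05). The aged duplicates of Klf4 differed too, and leaving out aged CLP replicate 2 gave a log2 difference of -2.02 and leaving out the other aged library gave -3.71, both of which passed the test. In HSCs Klf4 was at 11.9 and 12.6 CPM in young and at 31.0 and 31.6 CPM in aged libraries. The 2 aged HSC values were the highest of all 32 libraries, but the 2.55-fold difference (log2 1.35 ± 0.35) did not pass with edgeR (adjusted p = 0.0134) and had an adjusted p of 0.000395 with DESeq2. In MPP1 to MPP4 and GMPs the young and aged libraries overlapped, with log2 differences from -0.23 to 0.14. In MEPs, with 0 and 4 counts in young and 2 and 0 in aged libraries, no fold is given.

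Klf6 rose in MPP2 and fell in CLPs. In MPP2 it was at 304 and 301 CPM in young and at 523 and 582 CPM in aged libraries, 1.83-fold higher (log2 0.87 ± 0.17, adjusted p = 0.00152). Leaving out either young MPP2 library or aged MPP2 replicate 2 ended this call (adjusted p from 0.0175 to 0.0237) at log2 differences of 0.79 to 0.90. Klf6 was at 507 and 476 CPM in young against 767 and 716 CPM in aged HSCs (adjusted p = 0.0257). In MPP1 it was at 380 and 391 against 624 and 586 CPM (adjusted p = 0.0131). Young and aged libraries did not overlap in either fraction, but both differences missed the threshold with edgeR. With DESeq2 Klf6 passed in MPP1 (adjusted p = 0.00659) but not in HSCs. In CLPs it fell 1.94-fold, from 225 and 213 CPM to 139 and 87 CPM (log2 -0.96 ± 0.17, adjusted p = 0.000497), with an adjusted p of 0.0119 and a log2 difference of -0.66 without aged CLP replicate 2. A fit to the 4 CLP libraries alone kept the sizes of the 4 CLP falls but not the calls, with adjusted p-values of 0.0374 for Klf2, 0.0284 for Klf4, 0.0458 for Klf6 and 0.0223 for Klf11.

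Klf7 was low everywhere. It lay below its young level in all aged MPP2, MPP3 and MPP4 libraries (in MPP3 5.62 and 5.97 against 3.28 and 3.35 CPM, log2 -0.80 ± 0.37), but its adjusted p was 0.128 there and no lower in any other fraction.

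Klf12 fell in MPP3 and MPP4. In MPP4 it was at 6.93 and 6.09 CPM (112 and 80 counts) in young and at 0.964 and 1.30 CPM (13 and 18 counts) in aged libraries, 5.71-fold lower (log2 -2.51 ± 0.39, adjusted p = 0.000132). In MPP3 it went from 6.80 and 8.06 CPM to 2.28 and 1.97 CPM (log2 -1.80 ± 0.36, adjusted p = 0.00141). The MPP3 call was lost without young replicate 2, aged replicate 1 or aged replicate 2 (adjusted p 0.0151, 0.0123 and 0.0236, log2 -1.67 to -1.91). Its log2 differences were -0.50 in HSCs, -0.85 in MPP1 and -1.15 in MPP2, where aged libraries lay below young ones and the test was not passed with edgeR (adjusted p 0.36, 0.0874 and 0.0307), though it was with DESeq2 in MPP1 (0.00513) and MPP2 (0.000511).

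Klf3 fell in MPP3 from 36.3 and 43.9 CPM to 22.9 and 26.2 CPM (log2 -0.71 ± 0.13, adjusted p = 0.000356) and in MPP4 from 52.4 and 54.5 to 39.5 and 37.7 CPM (log2 -0.47 ± 0.12, adjusted p = 0.00692). The MPP4 call was lost without any 1 of its 4 libraries (adjusted p 0.0272 to 0.0639) and with offsets for GC content and length (0.0259). The MPP3 call was lost without young replicate 2 (0.0131) or aged replicate 1 (0.0107). Fits to the 4 libraries of a fraction alone lost both calls (0.0141 for MPP3 and 0.0107 for MPP4). In MPP2 Klf3 was at 27.3 and 31.3 CPM in young and at 20.1 and 21 CPM in aged libraries, without overlap, and the difference (log2 -0.51 ± 0.13) had an adjusted p of 0.0103, which missed the threshold with edgeR, and 0.00104 with DESeq2, which passed. In MPP1 Klf3 was at 36.4 and 35.1 CPM in young and at 24.9 and 26.6 CPM in aged libraries, also without overlap. This difference (log2 -0.47 ± 0.13) missed the threshold with edgeR (adjusted p = 0.016) and passed with DESeq2 (0.00309). In MEPs, where Klf3 was highest, it was at 132 and 117 CPM in young and at 160 and 143 CPM in aged libraries (log2 0.29 ± 0.12, adjusted p = 0.0638).

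Klf10 was lower in aged cells of 6 fractions. In GMPs it fell from 84.9 and 83.8 CPM to 44.5 and 42.6 CPM (log2 -0.95 ± 0.09, adjusted p = 1.19e-07). In MPP4 it fell from 243 and 244 to 154 and 172 CPM (log2 -0.58 ± 0.08, adjusted p = 2.45e-05), in MPP2 from 213 and 208 to 144 and 135 CPM (log2 -0.60 ± 0.08, adjusted p = 6.52e-05) and in MEPs from 89.2 and 77.2 to 57.1 and 58.8 CPM (log2 -0.52 ± 0.09, adjusted p = 8.61e-05). These 4 calls held without any 1 library of the fraction, but a fit to the 4 MEP libraries alone gave Klf10 an adjusted p of 0.0171 at a log2 difference of -0.54. The smaller falls in MPP1 and MPP3 (log2 -0.33 in both, adjusted p = 0.00905 and 0.00535) did not: the MPP1 call was lost without any 1 of its libraries (adjusted p 0.0776 to 0.17), and the MPP3 call without young replicate 1 (0.0548), young replicate 2 (0.0413) or aged replicate 1 (0.101) and in the 4 MPP3 libraries alone (0.0308). In HSCs and CLPs all aged libraries lay below the young ones, at log2 differences of -0.27 (adjusted p = 0.038) and -0.19 (adjusted p = 0.147).

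Klf11, its relative, was called in CLPs alone. It fell there from 30.2 and 37.2 CPM to 15.8 and 17.8 CPM (log2 -1.0 ± 0.22, adjusted p = 0.00289), and the call was lost without young replicate 2 (0.0474), aged replicate 1 (0.0494) or aged replicate 2 (0.0104). In MPP4 it was at 159.6 and 145 CPM in young and at 96.8 and 99.3 CPM in aged libraries (log2 -0.64 ± 0.19, adjusted p = 0.0182), which passed with DESeq2 (0.00182). In GMPs the value turned on 1 library: the log2 difference was -0.01 with all libraries and 0.78 (adjusted p = 0.00473) without young GMP replicate 2, which held 20.3 CPM against 8.26 in its duplicate.

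Klf13 was called lower in MPP2, MPP3, MPP4, GMPs and MEPs. In MPP1 it was at 74.8 and 69.5 CPM in young and at 53.7 and 53.1 CPM in aged libraries, without overlap. With edgeR Klf13 missed the threshold there (log2 -0.43 ± 0.12, adjusted p = 0.0183), and with DESeq2 it passed (0.00315). In MPP3 it went from 70.0 and 77.8 CPM to 48.7 and 45.9 CPM (log2 -0.64 ± 0.12, adjusted p = 0.00052), in MPP2 from 72.7 and 77.9 to 48.1 and 50.0 CPM (log2 -0.62 ± 0.12, adjusted p = 0.00137) and in MEPs from 127 and 133 to 87.7 and 90.8 CPM (log2 -0.54 ± 0.12, adjusted p = 0.00125). The falls in MPP4 and GMPs were smaller (log2 -0.46 and -0.43, adjusted p = 0.0063 and 0.0087). Every one of these 5 calls was lost in at least 2 of the 4 fits that each left out 1 library. The libraries concerned were young replicate 2 and both aged replicates in MPP2, replicate 2 of both ages in MPP3, young replicate 1 and both aged replicates in MPP4 and in GMPs, and young replicate 2 and aged replicate 1 in MEPs, with adjusted p-values from 0.0101 to 0.102. Offsets for GC content and length took away the calls in MPP2 (0.0149) and MPP4 (0.0245), and fits to the 4 libraries of the fraction alone those in MPP4 (0.0167) and GMPs (0.0256). In HSCs the aged duplicates of Klf13 differed (58.3 and 82.6 CPM) and overlapped the young ones, and without aged HSC replicate 2 the log2 difference went from -0.22 to -0.50 (adjusted p = 0.00808).

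Klf9 was called in GMPs, where it rose from 31.1 and 29.8 CPM to 47.2 and 41.6 CPM (log2 0.54 ± 0.11, adjusted p = 0.00086). The call was lost without young GMP replicate 2 (0.0117) or aged GMP replicate 1 (0.0273) and in the 4 GMP libraries alone (0.0198). In HSCs, the fraction with most Klf9, it was at 97.8 and 89.7 CPM in young and at 118 and 114 CPM in aged libraries (log2 0.31 ± 0.10, adjusted p = 0.0635), and in MPP1 at 64.1 and 68.5 against 50.7 and 54.1 CPM (log2 -0.34 ± 0.11, adjusted p = 0.0393).

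Whether the age difference itself differed between fractions was tested over all 8 fractions and in 2 contrasts. The age by fraction test was passed by 6 of 10 members (Klf2, Klf3, Klf4, Klf6, Klf9 and Klf10), against 34.9% of all genes. The smallest adjusted p was that of Klf2 (8.6e-08), and those of Klf7, Klf11, Klf12 and Klf13 were 0.311, 0.177, 0.0633 and 0.065. Klf11 had an adjusted p of 0.000165 without young GMP replicate 2, and Klf13 of 0.00206 without aged HSC replicate 1. The age difference in CLPs minus the mean over MPP1 to MPP4 was called for 5 of 10 members, against 22.6% of all genes. It was -3.32 ± 0.26 on the log2 scale for Klf2 (adjusted p = 9.06e-09), -2.54 ± 0.42 for Klf4 (8.45e-05) and -1.38 ± 0.19 for Klf6 (1.11e-05), and it was 0.79 ± 0.14 for Klf3 (0.000148) and 0.47 ± 0.13 for Klf13 (0.00802). The value of Klf13 was lost in 14 of 20 fits that each left out 1 CLP or MPP library (adjusted p up to 0.0989) and with GC and length offsets (log2 0.26, adjusted p = 0.136). The age difference in HSCs minus that in the MPPs was called for 0 members with edgeR, against 3.01% of all genes. For this contrast 6 members had an unadjusted p under 0.05, against 22.1% of all genes, and DESeq2 called Klf4, Klf9 and Klf12, against 8.17% of the genes it tested. The estimate of Klf9 was 0.51 ± 0.12 (adjusted p = 0.01) and that of Klf4 1.45 ± 0.39 (adjusted p = 0.0238).

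Across the 16 groups, mean log2 CPM of Klf2 went with Klf6 (Pearson r = 0.95) and Klf4 (r = 0.83), Klf10 with Klf11 (r = 0.90), and Klf6 with Klf12 (r = 0.85). Klf3 and Klf4 ran in opposite directions (r = -0.77), as did Klf6 and Klf13 (r = -0.75). These values describe 16 group means that share libraries, depth and the contrast between immature cells and MEPs. The tested genes most like Klf2 in this measure were Neurl1b, Pcdhb22 and Basp1 (r = 0.961, 0.961 and 0.960). Those most like Klf6 were Tnfsf10 (r = 0.991), Unc5a and Stau2. Klf3 was most like Cd82 (r = 0.976), Clcn3 and Rab22a, Klf4 most like Rhob (r = 0.961), Tmsb15b1 and Tmsb15l, and Klf9 most like Aifm2 (r = 0.969), Snx14 and Sord. Klf10 was most like Dcun1d1 (r = 0.953), Zfp820 and Dctn4, and Klf11 most like Zfp81 (r = 0.972), Osbpl1a and Tgif2. Klf12 was most like Bpifb5 (r = 0.993), Speg and Ephb4, Klf13 most like Trappc6b (r = 0.905), Hopx and Irak2, and Klf7 most like Filip1l (r = 0.879), 2310039L15Rik and Tor1aip1. These rankings depended on the measure. By Spearman's rank correlation most of the named genes were not among the 3 closest, and Neurl1b had 0.635 with Klf2. With a prior count of 0.5 in place of 2, Neurl1b and Basp1 dropped out for Klf2. All 3 genes named for Klf12 dropped out too, while most of the others stayed.

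Genes of the pathways around the members were read from lists. Of 8 genes that Klf2 is known to affect in lymphocyte trafficking, 1 moved through nearly all fractions, S1pr1. In MPP4 S1pr1 was at 63.7 and 58.8 CPM in young and at 14.5 and 14.1 CPM in aged libraries (log2 -2.1 ± 0.13, adjusted p = 9.19e-10). The log2 difference of S1pr1 was -0.81 for MPP1, -1.06 for MPP2 and -1.26 for MPP3, and it was -2.62 in GMPs, -2.28 in MEPs and -2.19 in CLPs, with adjusted p-values between 3.31e-10 and 6.52e-05, and in HSCs it was at 134 and 134 CPM in young and at 111 and 100.2 CPM in aged libraries (log2 -0.35 ± 0.11, adjusted p = 0.0537). Klf2 and S1pr1 thus moved in opposite directions in MPP1 to MPP4 and GMPs and both fell in CLPs. Of the whole list, 2 were called higher and 0 lower in HSCs (median log2 0.51) and 0 higher and 4 lower in MEPs (median -2.08). MPP1 and MPP2 had 1 lower each (medians -0.06 and -0.32), MPP3 and GMPs 2 lower each (medians -0.54 and -0.69), and MPP4 1 higher and 2 lower (median -0.33). CLPs had 5 higher and 1 lower (median 0.74), where the chemokine receptor Ccr9 had a log2 difference of 1.38 ± 0.21 (adjusted p = 0.000134) and the integrin Itgb7 one of 0.85 ± 0.15 (adjusted p = 0.000384).

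**Figure D5:**
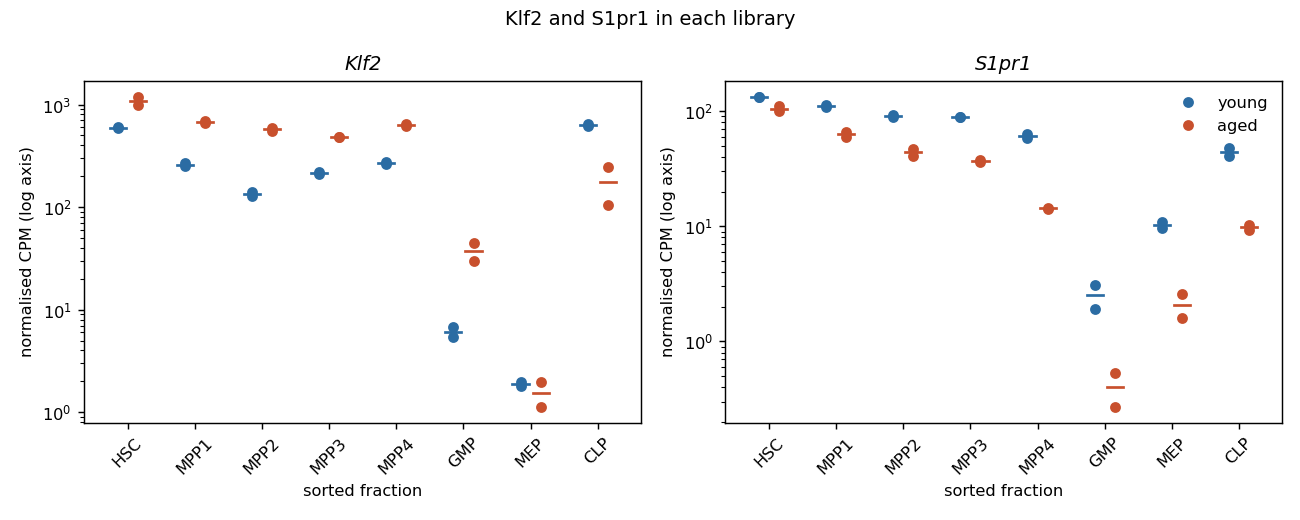
Normalised CPM (log axis) of Klf2 and S1pr1 in each library (points) with the group mean (bars), young in blue and aged in red. From MPP1 to GMP the aged points lie above the young ones for Klf2 and below them for S1pr1.

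Of 12 known regulators of Klf2 and Klf4 (the Erk5 kinase cascade, MEF2 and FOXO factors and ubiquitin ligases), 2 were lower in aged MPP2, 3 lower in MPP3 and 2 lower in MPP4. GMPs and CLPs each had 1 higher and 1 lower, MEPs had 2 higher and 3 lower, and no regulator was called in HSCs or MPP1. Mef2c was at 158 and 169 CPM in young and at 108 and 114 CPM in aged MPP2 (log2 -0.56 ± 0.10, adjusted p = 0.000675). Foxo1, a FOXO factor that acts on Klf2 in lymphocytes, fell in CLPs from 174 and 171 to 113 and 107 CPM (log2 -0.65 ± 0.12, adjusted p = 0.000448).

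Of 8 tested TGF-beta inputs of Klf10 and Klf11, Smad7, the inhibitory Smad, was the 1 gene lower in each of HSCs, MPP1, MPP2 and MPP3, while MPP4 had 4 lower, MEPs 2 lower and CLPs none. Smad7 was at 121 and 113 CPM in young and at 43.9 and 38.4 CPM in aged MPP1 (log2 -1.51 ± 0.16, adjusted p = 2.24e-06). In GMPs, where Klf10 fell most, Smad7 did not pass (log2 0.24 ± 0.21) and Smad3 rose (log2 0.93). Of 9 genes of the glucocorticoid receptor and its targets, the pathway of Klf9, 3 were lower and 0 higher in CLPs and in each MPP fraction, 1 was lower in HSCs, 2 were lower in MEPs, and 3 were higher and 1 lower in GMPs. Dusp1, the gene of this list with the largest change in GMPs (log2 4.77) and in CLPs (log2 -2.46), is also an immediate early gene. Tsc22d3, a steroid-induced gene, fell in HSCs from 459 and 479 to 342 and 347 CPM (log2 -0.45 ± 0.08, adjusted p = 0.00073). Corepressors (9 genes, CtBP and Sin3 complexes) had 0 to 3 called in either direction in any fraction, and their medians lay between -0.19 and 0.11.

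There were 7 other Klf genes, of which 5 passed the filter, and 1 of them was called in an age comparison, Klf1, the erythroid factor that activates Klf3. Klf1 was at 1030.4 and 974 CPM in young MEPs and did not pass with age there (log2 0.12 ± 0.17), but it fell in MPP2 from 15.2 and 15.5 to 5.83 and 5.14 CPM (log2 -1.48 ± 0.24, adjusted p = 0.00022) and in MPP3 from 10.1 and 10.5 to 1.27 and 1.75 CPM (log2 -2.77 ± 0.31, adjusted p = 2.34e-06). It also fell in GMPs, from 3.92 and 3.46 to 1.7 and 0.979 CPM (log2 -1.45 ± 0.4, adjusted p = 0.00826). Of the 8 erythroid marker genes, of which Klf1 is 1, 6 were lower in MPP3 and 5 each in MPP2 and GMPs, and their part in these falls was not tested.

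Klf2, Klf4 and Klf6 are known to respond quickly when cells are isolated, and 24 immediate early and dissociation genes, none of them a member, were read beside them. In aged GMPs, where Klf2 rose, 15 of the 24 were higher and 1 lower (median log2 1.38), with Fos at 15.3 and 19.1 CPM in young and at 796 and 648 CPM in aged libraries and Egr1 at 0.214 and 0.484 against 69.0 and 83.0 CPM. In aged CLPs, where Klf2, Klf4 and Klf6 fell, 14 were lower and 1 higher (median log2 -1.52). Fos was at 2344 and 2342 CPM in young and at 783 and 315 CPM in aged CLPs, and its lower aged library was the one with less Klf2, Klf4 and Klf6. In MPP1 to MPP4, where Klf2 rose as well, more of the list was lower than higher. MPP1 had 3 higher and 5 lower, MPP2 had 3 and 7, MPP3 had 2 and 8 and MPP4 had 3 and 11, with medians from -0.47 to -0.38. In these fractions Fos was not called (in MPP2 2912 and 2933 against 3810 and 3991 CPM, log2 0.42 ± 0.23, adjusted p = 0.241), and the heat-shock gene Hspa1a was higher (in MPP4 14.7 and 11.3 against 128 and 139 CPM, log2 3.35 ± 0.49, adjusted p = 3.1e-05). HSCs had 3 higher and 1 lower (median 0.28) and MEPs 6 higher and 4 lower. The part of cell handling in the changes of Klf2, Klf4 and Klf6 was not tested.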

How the data were processed

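RNA was sequenced from 32 libraries, 8 sorted fractions at 2 ages in duplicate. Per the methods, the authors amplified cDNA with the SMARTer Ultra Low Input kit, aligned single reads to mm10 with TopHat2 2.0.13 and Bowtie2 2.1.0 (versions from the submitters' processing notes) and deposited raw counts per gene from StringTie, which are whole numbers with no molecular identifiers. Their table of normalized values and their own comparisons (fold changes and p-values) were not used.

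Counts were tested with the quasi-likelihood test of edgeR 4.0.16 (R 4.3.3) on all 32 libraries with 1 mean per group, TMM factors (0.807 to 1.11) and filterByExpr, which kept 14154 of 24421 genes. There were 16 residual degrees of freedom. All tests were two-sided, p-values were adjusted within each contrast over all tested genes by the Benjamini-Hochberg method, and genes under 0.01 were called. A difference between ages is not given as a fold where both libraries of either age held 3 counts or fewer. Totals per library ran from 11237384 to 17723245 counts. Floors cover counting error only, and amplified reads are not independent molecules. Values after ± are SEs of the edgeR fit, or SDs between duplicates where marked, and these include spread between libraries. Log2 CPM used a prior count of 2. The 3 genes most like each member were taken by Pearson's r over 16 group means among tested genes averaging 1 CPM or more. The rule for naming took all 10 members and, per list and comparison, at most 4 called genes with the largest absolute log2 fold change and any gene that a member's result turned on. Fos was named after its values were seen. The members and lists were chosen with earlier results of these data known. Alternatives were size factors and the test of DESeq2 1.42.0, no filter, a replicate block, GC and length offsets, thinned counts, other thresholds, each library left out and each fraction alone. Replicate numbers were not used as pairs in the reported fit.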

Additional observations from a re-analysis of the deposited data

Results flagged for a closer look

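Age effects of 6 members differed between the 8 fractions by the interaction test of edgeR, with adjusted p-values of 8.6e-08 for Klf2, 0.000107 for Klf3, 0.000308 for Klf4, 6.85e-05 for Klf6, 0.000401 for Klf9 and 0.000514 for Klf10. Over all tested genes, 34.9% passed this test. Klf2 rose in 5 fractions and fell in CLPs.

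The age difference in CLPs minus the mean over MPP1 to MPP4 was past the threshold for 5 members, against 22.6% of all tested genes. On the log2 scale it was -3.32 for Klf2, -2.54 for Klf4, -1.38 for Klf6, 0.79 for Klf3 and 0.47 for Klf13. With GC and length offsets the value of Klf13 was 0.26 and did not pass (adjusted p = 0.136). Basophil and immediate early genes moved with age in the same libraries. Groups of 2 libraries were too small to look for single outlying samples.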

How the results depend on the processing

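Of 78 member and fraction values, no called one changed sign under any setting that kept all libraries of the fraction, and a replicate block changed the call of none (all genes in HSCs 758 against 764). The correlation of same-numbered libraries' deviations from their group means ran from -0.33 in MPP1 to 0.427 in MPP3 and was over 0.1 in 4 of 8 fractions. These values do not settle whether same-numbered libraries of those 4 fractions share a factor. The numbers were not taken as pairs in the reported fit. Crossing the numbers of the block in MPP1, an alternative added after seeing the data, left 2 members called. It gave 997 genes, against 1003 with the block uncrossed and 963 without a block. Of the 10 members, none was called in aged against young HSCs, but 1 was with DESeq2 size factors, 2 with GC and length offsets, 2 with those and the replicate block, 2 with thinned counts, 2 with DESeq2, 2 with only the 4 libraries of the fraction and 4 at an adjusted p under 0.05. In MPP1 (2 members) DESeq2 called 6, the 4 libraries alone 8 and the looser threshold 6. DESeq2 also called more of all genes in MPP1, 1663 of 12782 tested against 963 of 14154 with edgeR. For most other settings here counts over all genes are not given, so these member counts are not set against them. The 4 libraries alone called 7 in MPP2 (against 4), 3 in MPP3 (against 5), 2 in GMPs (against 4), 1 in MEPs (against 2) and 0 in CLPs (against 4, by edgeR with 2 libraries per group), and this setting lost 11 and gained 12 of 76 values as calls. GC and length offsets left 3 in MPP4 (against 5). With a change of at least 1 on the log2 scale required too, 1 member was called for each of MPP1, MPP2 and GMPs, 2 for each of MPP3 and MPP4, 0 for MEPs, 3 for CLPs minus MPPs, 3 for young MPPs and 5 for young GMPs against HSCs. For HSCs minus MPPs, none in the reported fit, the size factors, the offsets, the offsets with the block and thinned counts each called 1, DESeq2 3 and the looser threshold 2. Leaving out 1 library gave 0 to 1 members for HSCs, 1 for MPP1, 2 to 3 for MPP2, 0 to 4 for MPP3, 3 to 4 for MPP4, 2 to 4 for GMPs, 1 to 2 for MEPs, 2 to 4 for CLPs, 6 to 7 by fraction, 0 to 1 for HSCs minus MPPs, 4 to 5 for CLPs minus MPPs, and 3 to 5, 7 to 8, 9 and 5 for young MPPs, GMPs, MEPs and CLPs against HSCs, with the lone library assumed to vary like the other groups. The log2 difference of Klf11 in GMPs ran from -0.52 to 0.78 when 1 library was left out, and reversed without young GMP replicate 2. Without a filter, the share of called genes that were higher went from 43.7% to 30.6% in MEPs and from 57.6% to 47.0% in MPP2. The causes were not tested. Klf12 had 0 counts in every GMP and MEP library, and Klf12 in CLPs and Klf4 in MEPs had at most 4 counts per library, so no fold between ages is given for them.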
